A study of Mus musculus with 12 samples.

Results

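The genes described here encode 34 subunits and partners of the BAF, Polycomb and macroH2A chromatin machinery. They were taken by gene name from a table of 21563 genes that compares the heart tube (HT) with the posterior second heart field (pSHF) of the mouse embryo. All 34 were found, and all 34 were among the 14909 genes with a mean of at least 5 that were tested. Of them, 16 belong to the BAF family, 15 to Polycomb complexes, and 3 are other chromatin genes (Kdm6b, H2afy and H2afy2). The 6 HT and 6 pSHF libraries came from wild-type mice of the outbred CD1 strain at E10.0, with no transgene or treatment in either group, and each embryo gave both tissues. The heart tube holds differentiating heart muscle, and the pSHF is the mesoderm behind it that contributes cells to the atria and the atrial septum. Poly-A RNA was sequenced, and the series title places the comparison in work on Hedgehog signaling and the timing of differentiation.

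BAF complexes use an ATPase (Smarca2 or Smarca4) to move nucleosomes, and they are built by choosing among related subunits, so that a switch of subunit can accompany a change of cell type. Polycomb complexes keep genes silent: PRC2 methylates lysine 27 of histone H3 through Ezh1 or Ezh2, and canonical PRC1 binds that mark through a CBX protein and modifies histone H2A through Ring1 or Rnf2. Kdm6b removes methyl groups from lysine 27 of histone H3. MacroH2A proteins are variants of histone H2A with a large extra domain, known from repressed chromatin. In the developing heart, Smarcd3 (BAF60C) and Dpf3 (BAF45C) are known as the BAF subunits that go with cardiac gene expression.

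Levels are the authors' normalized gene counts, and each fold change is HT relative to pSHF, taken on log2(value + 1), where the change of a gene with few reads is understated. Adjusted p-values are from limma with Benjamini-Hochberg adjustment over all 14909 genes, with a threshold of 0.05. Depth rebuilt from the values ran from 20634400 to 25645400 reads over the HT libraries and from 19089600 to 26287300 over the pSHF libraries. The normalized totals differed between the tissues, at 24136600 to 25035000 in HT and 20552700 to 20787000 in pSHF. Scaling all libraries to equal totals therefore moved the median of all genes by -0.24 on the log2 scale, and values under that scaling are marked as such. The 6 cardiomyocyte markers all passed higher in HT, with summed levels of 415527 to 508507 against 24171 to 53815 in pSHF, and the 6 second heart field markers all passed higher in pSHF, at 548 to 748 against 7397 to 9169. The dissected tissues also held other cells: 13 of 13 erythroid markers were higher in HT, where they took 1.66 to 7.10% of the normalized total against 0.351 to 0.694% in pSHF. All 7 endothelial markers were higher in HT (6 under equal totals, where Kdr was at 0.07 with limma adjusted p = 0.296), while 7 of 7 foregut endoderm, 7 of 7 neuron, 6 of 7 somite and 5 of 6 neural crest markers were higher in pSHF. In such bulk tissue, a smaller share of cells and less RNA per cell cannot be told apart. Whether a library is 1 embryo or a pool is not stated in the labels, and p-values thus reflect only how much the libraries of a tissue vary.

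Most of the 34 chromatin genes were higher in the pSHF. In limma, 25 passed higher in pSHF (73.5% of members, against 40.0% of all genes tested), 7 passed higher in HT (20.6%, against 38.3%), and Dpf2 and Ring1 did not pass. In all, 32 members passed, and 78.3% of all genes did. Their median log2 fold change was -0.47, beside -0.02 over all genes tested. After scaling to equal totals, 27 were higher in pSHF, 4 higher in HT and 3 not passed, where 54.7% of all genes were higher in pSHF and 26.3% higher in HT. All pSHF libraries lay above all HT libraries for 22 members (30.3% of all genes did so), and all HT libraries above all pSHF libraries for 5 (30.1%), together 79.4% of members beside 60.5% of all genes. The differences were mostly moderate: more than 2-fold for 5 members in pSHF (13.6% of all genes) and for 2 in HT (13.4%).

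The 7 members higher in HT were Smarcd3, Dpf3 and Pbrm1 among 16 BAF genes and Ezh1, Suz12, Cbx6 and Cbx7 among 15 Polycomb genes. Of these, Pbrm1, Ezh1 and Suz12 had no call with equal library totals, with log2 fold changes of 0.01, 0.00 and 0.05. BAF members were higher in pSHF in 12 cases, with a median log2 fold change of -0.57, and Polycomb members in 10, with a median of -0.39. The share of all genes higher in pSHF was 40.0%, and the median over all genes was -0.02. Kdm6b and the macroH2A genes were all higher in pSHF. In the plot of all fold changes, BAF and Polycomb genes fall on both sides of 0, and the SMARCD, DPF, EZH and CBX families each have members on both.

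**Figure D1:**
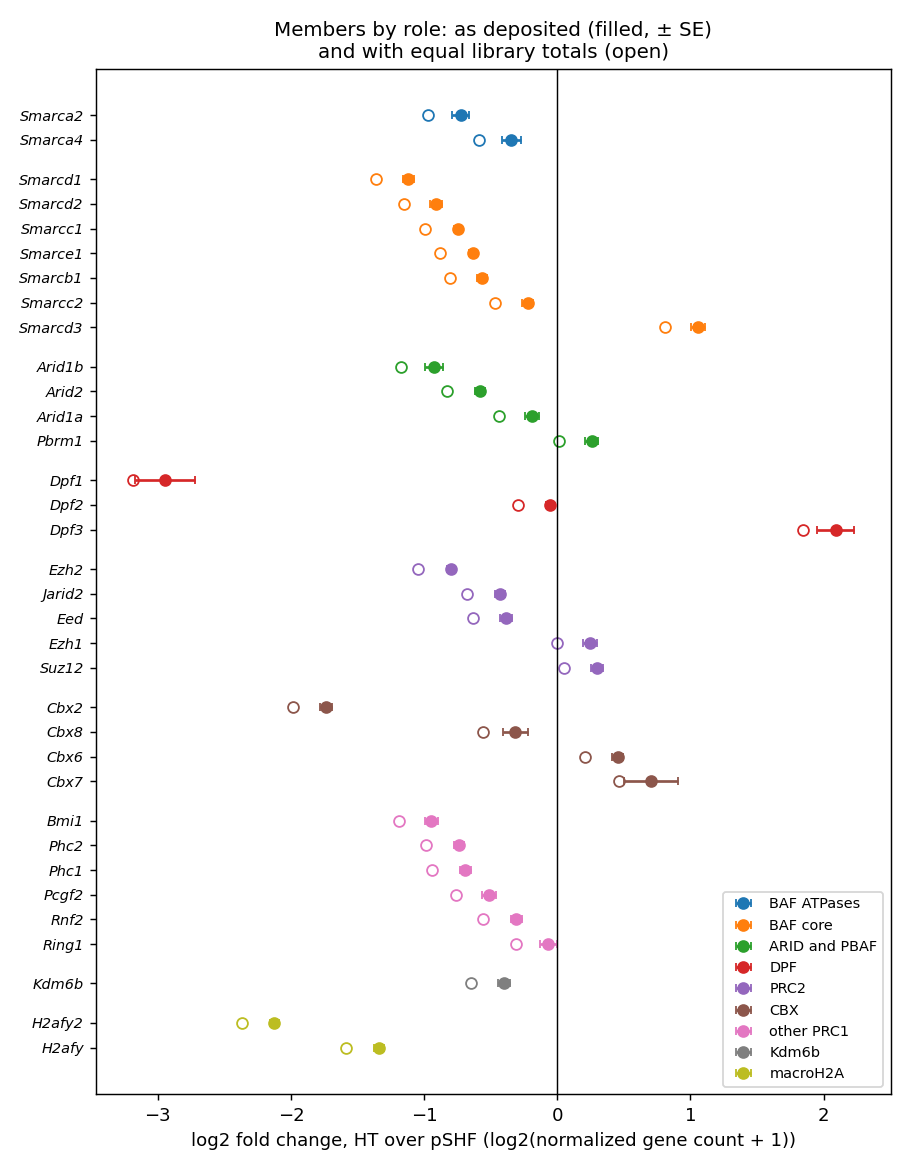
Log2 fold change of HT over pSHF for each of the 34 members, with its standard error, ordered by role. Points left of 0 are higher in pSHF; Dpf1 (-2.95) and H2afy2 (-2.12) lie farthest to the left, and Dpf3 (2.09) and Smarcd3 (1.06) farthest to the right.

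The BAF members were led by opposite changes within the SMARCD and DPF families. Smarcd1 and Smarcd3 encode alternative accessory subunits of which a complex takes one, and Dpf1 and Dpf3 encode alternative PHD-finger subunits. Their genes lie on the mouse build mm10 at chromosome 15, 99702129 to 99713991, plus strand (Smarcd1), chromosome 5, 24590818 to 24624411, minus strand (Smarcd3), chromosome 7, 29303951 to 29318243, plus strand (Dpf1), and chromosome 12, 83213745 to 83487716, minus strand (Dpf3). Their promoters are shown because each pair moved in opposite directions. The windows are RefSeq's on GRCm38.p6, which is the mm10 assembly, and run from 250 bases before to 50 bases after the start of transcription, 5′ to 3′ on the strand of the gene. Capitals mark the dinucleotide CG. The windows are chr15:99702037-99702336 (Smarcd1, plus strand), chr5:24601953-24602252 (Smarcd3, minus strand), chr7:29303755-29304054 (Dpf1, plus strand) and chr12:83487687-83487986 (Dpf3, minus strand). The Smarcd3 window lies inside the gene as annotated above, away from its 5′ end at 24624411, so it belongs to an internal start. Which start was used in these tissues was not tested.
Smarcd1: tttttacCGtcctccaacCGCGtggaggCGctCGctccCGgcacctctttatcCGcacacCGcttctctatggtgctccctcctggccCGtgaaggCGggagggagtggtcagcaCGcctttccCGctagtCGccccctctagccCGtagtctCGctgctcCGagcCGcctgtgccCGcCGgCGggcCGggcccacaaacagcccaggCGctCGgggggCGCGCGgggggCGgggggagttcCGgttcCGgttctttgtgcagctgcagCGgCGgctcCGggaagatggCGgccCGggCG
Smarcd3: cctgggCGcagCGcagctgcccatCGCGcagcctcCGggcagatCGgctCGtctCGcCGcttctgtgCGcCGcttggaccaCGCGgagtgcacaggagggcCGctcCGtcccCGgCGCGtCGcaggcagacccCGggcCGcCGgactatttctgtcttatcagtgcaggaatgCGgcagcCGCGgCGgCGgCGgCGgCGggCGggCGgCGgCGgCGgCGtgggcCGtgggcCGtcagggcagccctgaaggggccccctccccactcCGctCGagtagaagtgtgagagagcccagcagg
Dpf1: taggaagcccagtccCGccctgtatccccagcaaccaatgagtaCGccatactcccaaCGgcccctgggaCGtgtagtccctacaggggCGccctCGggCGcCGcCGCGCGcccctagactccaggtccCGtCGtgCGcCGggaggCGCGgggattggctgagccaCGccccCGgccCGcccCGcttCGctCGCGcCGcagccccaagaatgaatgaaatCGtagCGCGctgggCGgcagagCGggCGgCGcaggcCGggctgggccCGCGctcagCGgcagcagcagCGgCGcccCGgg
Dpf3: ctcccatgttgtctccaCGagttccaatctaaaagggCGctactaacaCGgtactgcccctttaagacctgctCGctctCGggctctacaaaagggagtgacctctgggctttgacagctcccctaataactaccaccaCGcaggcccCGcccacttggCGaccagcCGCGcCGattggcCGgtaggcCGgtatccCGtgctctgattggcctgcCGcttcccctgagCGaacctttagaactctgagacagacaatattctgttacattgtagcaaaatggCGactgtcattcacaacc
CG occurred 35 times in the Smarcd1 window, 40 times in Smarcd3, 39 times in Dpf1 and 17 times in Dpf3. CG reads the same on both strands and its copies cannot overlap. Of all 32851 promoter windows of that length, 6.95%, 3.91%, 4.45% and 31.4% held at least as many. Over the 30 members with an entry (34 windows), CG counts ran from 2 to 48 with a median of 29.5, beside a median of 7 over all windows. Arid2, Cbx2, Kdm6b and Smarce1 had no entry.

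Smarcd3 was one of the BAF genes higher in the heart tube. Its normalized gene counts were 2066 at the lowest, 2402 at the median and 2512 at the highest over the HT libraries, and 1066, 1133 and 1217 over the pSHF libraries. Every HT library was above every pSHF library, and the lowest HT value was set by 1 library, MR28R. The log2 fold change was 1.06 (SE 0.0508, limma adjusted p = 3.8e-11), which is 2.08-fold, and it was 0.81 with equal library totals. Smarcd1 ran the other way, with 1558, 1602 and 1759 in HT and 3265, 3559 and 3738 in pSHF. Its groups did not overlap either, and all pSHF values were above all HT values (log2 fold change -1.12, SE 0.0404, limma adjusted p = 1.5e-12; 2.17-fold higher in pSHF). Smarcd2, the other paralog of this family, followed Smarcd1 (974 ± 57.6 in HT against 1827 ± 79.1 in pSHF, SD, n = 6 each; log2 fold change -0.91).

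Dpf3, whose protein is known to read modified histones at muscle genes, had 575 at the lowest, 607 at the median and 688 at the highest over HT, and 94.8, 142 and 209 over pSHF. The HT libraries were all above the pSHF libraries, and the log2 fold change was 2.09 (SE 0.141, limma adjusted p = 2.1e-09; 4.26-fold). Dpf1, best known as a subunit of BAF complexes in neurons, had 31.5, 57 and 112 in HT and 342, 466 and 511 in pSHF. It was the member with the largest difference, at -2.95 (SE 0.223, limma adjusted p = 8.5e-09; 7.71-fold higher in pSHF), and the groups did not overlap. The neuron marker list moved with it: 7 of 7 markers passed higher in pSHF, and the summed level was 558 to 630 in HT and 2232 to 3387 in pSHF. The cardiomyocyte list moved in the direction of Dpf3 and Smarcd3, as given above, with none of its markers at 0 in pSHF. Neither list stood alone. All second heart field and foregut endoderm markers, and most somite and neural crest markers, also passed higher in pSHF. All erythroid and endothelial markers also passed higher in HT. The part of these cells in the changes of Dpf1, Dpf3 and Smarcd3 was not tested. Dpf2, the broadly expressed member of the family, did not pass (HT 3118 ± 102, pSHF 3229 ± 66.7; log2 fold change -0.05, limma adjusted p = 0.13). It passed as higher in pSHF under equal library totals, at -0.30.

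**Figure D2:**
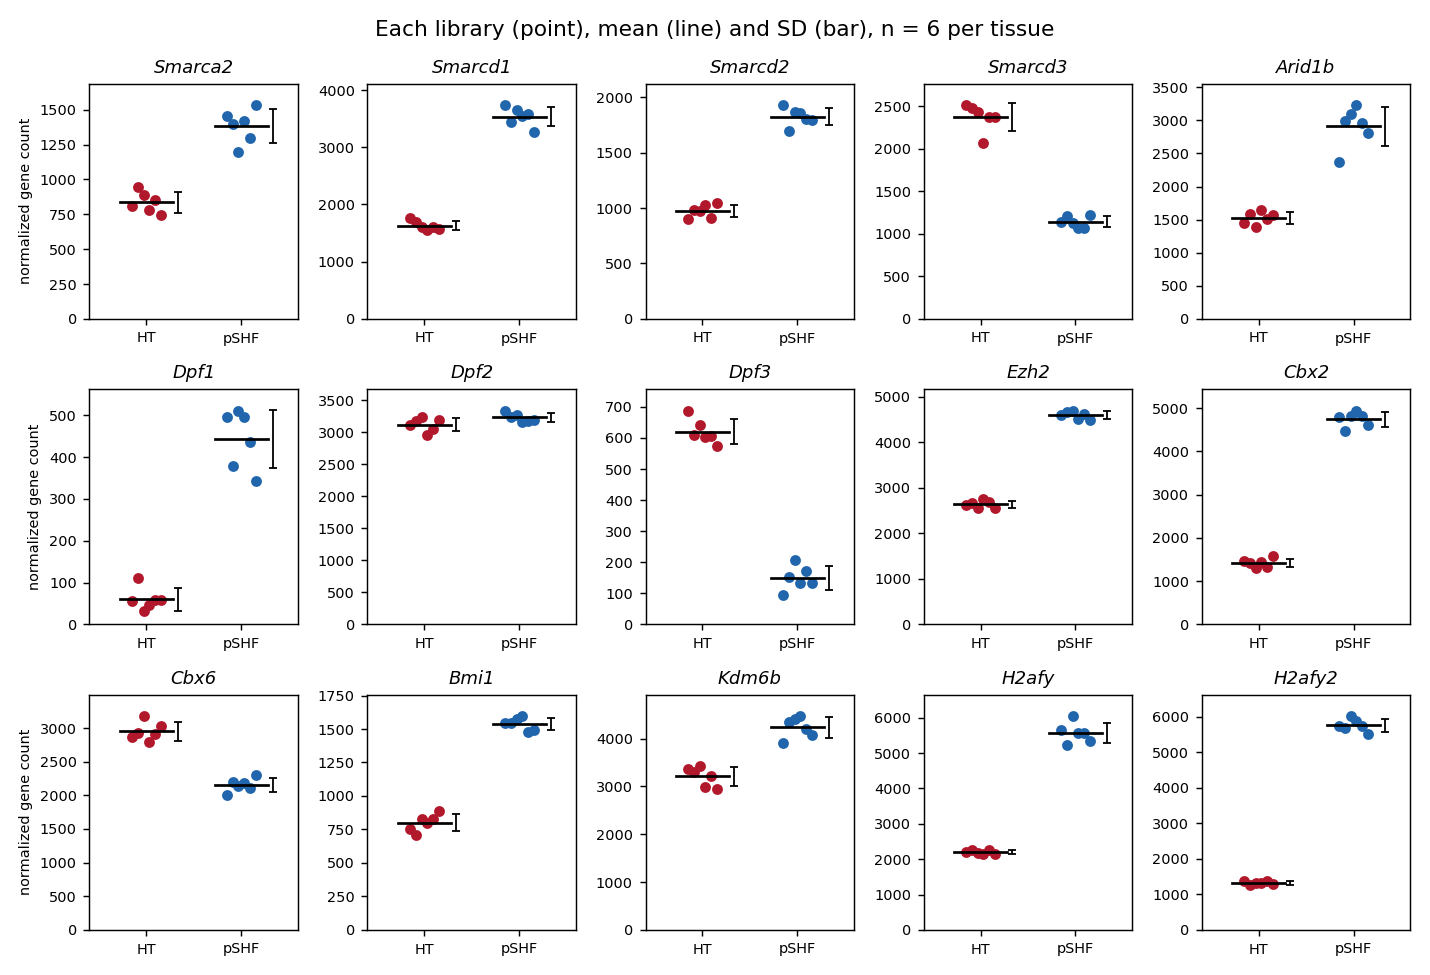
Normalized gene count in each library (points) for 15 members, with the mean (line) and SD (bar) of the 6 HT and 6 pSHF libraries, on linear axes that start at 0. Smarcd3 and Dpf3 sit higher in HT, Smarcd1, Dpf1, Cbx2, H2afy and H2afy2 sit higher in pSHF without overlap, and the Dpf2 groups overlap.

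Both ATPase genes were higher in pSHF. Smarca2 (BRM) had 743 at the lowest, 828 at the median and 949 at the highest in HT, and 1198, 1410.1 and 1534 in pSHF. Its groups did not overlap (log2 fold change -0.73, SE 0.0674, limma adjusted p = 9.3e-08). Smarca4 (BRG1) was 8657 ± 188 in HT against 11081 ± 1417 in pSHF (log2 fold change -0.35). Its groups overlapped because of 1 pSHF library, MR13, at 8455, and without that library the log2 fold change was -0.42.

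The shared core of the complex was also higher in pSHF. Smarcc1, a scaffold subunit, was 7102 ± 121 in HT against 11934 ± 345 in pSHF (log2 fold change -0.75), while its paralog Smarcc2 differed less (4818 ± 147 and 5629 ± 315; -0.22). Smarcb1, the SNF5 subunit, had a log2 fold change of -0.56, and Smarce1, which carries an HMG box, had one of -0.63. With the SMARCD genes, 6 of these 7 core members were higher in pSHF, Smarcd3 being the exception. The shares of all genes were 40.0% higher in pSHF and 38.3% higher in HT. Equal library totals gave the same 6 and 1, where the shares of all genes were 54.7% and 26.3%.

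Among the ARID and PBAF subunits, which target the complex and tell its classes apart, Arid1b showed the largest difference. It had 1391 at the lowest, 1541 at the median and 1641 at the highest in HT, and 2366, 2970 and 3231 in pSHF. The groups did not overlap, although the lowest pSHF value, again MR13, stood below the others (log2 fold change -0.93, SE 0.066, limma adjusted p = 4.1e-09). Arid1a, its paralog, differed by -0.19 (7875 ± 428 in HT and 9004 ± 706 in pSHF) with overlapping groups. Arid2, of the PBAF class, was higher in pSHF at -0.58. Pbrm1, the other PBAF subunit, was 6856 ± 494 in HT and 5724 ± 297 in pSHF (0.26). That call depended on the scaling, since the value was 0.01 (limma adjusted p = 0.792) with equal library totals.

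The BAF genes outside the 34 were read from a list of 14, of which Actl6b had a mean under 5 and 13 were tested. Their median log2 fold change was -0.59, and 10 passed higher in pSHF and 3 higher in HT. Equal library totals gave 10 and 0. Of all genes tested, 40.0% passed higher in pSHF and 38.3% in HT, and 54.7% and 26.3% under equal totals. Bcl11a, a zinc finger subunit known from blood and brain, was 373 ± 59.7 in HT against 2054 ± 158 in pSHF (log2 fold change -2.47). Bcl11b, its paralog known from T cells and brain, was 172 ± 24.9 and 662 ± 50.1 (-1.94). At the other end, Bcl7b (0.17) and Gltscr1l (0.32), a subunit of the non-canonical BAF complex, passed higher in HT but had no call with equal totals, where they were at -0.07 and 0.07.

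In PRC2, the methyltransferase paralogs differed in opposite directions. Ezh2, the enzyme typical of dividing cells, had 2552 at the lowest, 2640.2 at the median and 2745 at the highest in HT, and 4495, 4608 and 4699 in pSHF. The groups were far apart relative to their spread (log2 fold change -0.80, SE 0.0279, limma adjusted p = 1e-12; 1.74-fold higher in pSHF). Ezh1, the paralog known from cells that no longer divide, was 636 ± 35.9 in HT and 536 ± 27.3 in pSHF, with groups that overlapped. Its log2 fold change was 0.25 and became 0.00 with equal library totals (limma adjusted p = 0.995). Eed, which binds the methyl mark, was lower in HT (882 ± 51.7 against 1152 ± 48.4; -0.39), as was Jarid2, an accessory subunit (2683 ± 133 against 3610.2 ± 108; -0.43). Suz12, the scaffold of the complex, was 3400.4 ± 235 in HT and 2762 ± 61.5 in pSHF (0.30), with no overlap, and had no call with equal totals (0.05, limma adjusted p = 0.262).

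The CBX genes, whose proteins carry the chromodomain of canonical PRC1, were split as well. Cbx2 had 1306 at the lowest, 1434 at the median and 1573 at the highest in HT, and 4462, 4807 and 4946 in pSHF. All pSHF libraries were above all HT libraries, and the log2 fold change was -1.74 (SE 0.0447, limma adjusted p = 5.4e-14; 3.33-fold higher in pSHF). Cbx2 and Cbx8 are neighbours on chromosome 11, at 119022962 to 119031270 on the plus strand and 119036305 to 119040969 on the minus strand. Cbx8 changed less, from 301 ± 30.7 in pSHF to 242 ± 31.1 in HT (-0.31), with overlapping groups. Cbx6 was higher in HT, with 2951 ± 137 against 2155 ± 100.2 in pSHF (0.45, limma adjusted p = 4.7e-08, no overlap), and remained called with equal library totals (0.21). Cbx7 was low, at 54.5 ± 14 in HT and 32.8 ± 7.78 in pSHF, and passed as higher in HT with overlapping groups (0.71, limma adjusted p = 0.0053). With equal library totals it passed narrowly (0.47, limma adjusted p = 0.0455). Its exons share 100 bases with Apobec3 on the opposite strand, which was 443 ± 92.7 in HT and 198 ± 57.8 in pSHF. Reads in the shared bases may not be told apart, as for Smarcd3 below.

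Of the other 6 PRC1 members, 5 were higher in pSHF and 0 in HT, beside 40.0% and 38.3% of all genes. Equal library totals gave 6 and 0, beside 54.7% and 26.3% of all genes. Bmi1 (PCGF4), a partner of the RING ligases, had 707 at the lowest, 812 at the median and 889.6 at the highest in HT, and 1479.5, 1544 and 1597 in pSHF. Its groups did not overlap (log2 fold change -0.95, SE 0.0502, limma adjusted p = 1.2e-10; 1.93-fold higher in pSHF). Its paralog Pcgf2 (MEL18) was 1149.5 ± 87.5 and 1639 ± 101 (-0.51). The polyhomeotic genes Phc1 and Phc2, whose proteins link PRC1 complexes to each other, differed by nearly the same amount, at -0.69 and -0.74. Rnf2 (RING1B), a ligase, was lower in HT at -0.31, while Ring1, its paralog, did not pass (391 ± 23.7 and 409.7 ± 30.4; -0.07, limma adjusted p = 0.34). Under equal library totals Ring1 passed as higher in pSHF, at -0.31.

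Polycomb subunits and partners outside the 34 were split evenly. Of 24 tested, 9 passed in each direction, and the median log2 fold change was 0.07. Equal library totals gave 7 higher in HT and 13 in pSHF. Both splits were near the shares of all genes, at 38.3% in HT and 40.0% in pSHF, and 26.3% and 54.7% under equal totals. Pcgf5, of a variant PRC1 complex, was 643 ± 32.6 in HT and 81.9 ± 17.5 in pSHF (2.98), a difference about as large as that of Dpf1 in the other direction. Phf19, a PRC2 partner, was also higher in HT (1.25). Pcgf1 (-0.93) and Kdm2b (-0.84), both of another variant PRC1 complex, were higher in pSHF.

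Kdm6b, the demethylase, had 2948 at the lowest, 3264 at the median and 3421 at the highest in HT, and 3913, 4269 and 4474 in pSHF. It was higher in every pSHF library (log2 fold change -0.40, SE 0.0456, limma adjusted p = 1e-06).

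Both macroH2A genes were strongly higher in pSHF. H2afy (macroH2A1; chromosome 13, 56073619 to 56136361, minus strand) had 2152 at the lowest, 2192 at the median and 2258 at the highest in HT, and 5229, 5569.6 and 6049 in pSHF. H2afy2 (macroH2A2; chromosome 10, 61738665 to 61784147, minus strand) had 1250.5, 1308 and 1379.9 in HT and 5504, 5733 and 6015 in pSHF. For both genes the HT values lay in a narrow band well below all pSHF values. The log2 fold changes were -1.34 for H2afy (SE 0.035, limma adjusted p = 6e-14; 2.53-fold) and -2.12 for H2afy2 (SE 0.0331, limma adjusted p = 1.5e-15; 4.36-fold). Their promoter windows held 37 and 23 CG, and 5.58% and 21.5% of all windows held as many.

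Other histone variants were mostly higher in pSHF too. The median log2 fold change of the 8 tested was -0.69, and 7 passed higher in pSHF and 0 in HT, beside 40.0% and 38.3% of all genes. H2afv, a form of H2A.Z, differed by -1.01. The H3.3 genes H3f3b (-1.20) and H3f3a (-0.35) have near-identical copies elsewhere in the genome, so their values are uncertain. Cenpa, the centromeric form of H3, differed least among those called, at -0.09. The 25 cell cycle genes had a median of -0.02. Among them 10 passed higher in pSHF, such as Tyms (-0.54) and Aurkb (-0.46), and 6 passed higher in HT, such as Ccna2 (0.56) and Mki67 (0.57). The pSHF count was near the 40.0% of all genes, while the HT count was below their 38.3%. Under equal library totals these counts were 20 and 2 (54.7% and 26.3% of all genes), and Mki67 had no call (0.33, limma adjusted p = 0.0552).

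The other remodelers and the Trithorax group were also mostly higher in pSHF. Of 19 remodeler genes of the ISWI, CHD and INO80 families, 12 were higher in pSHF and 3 in HT (median log2 fold change -0.29), with 15 and 2 under equal library totals. For this list and the Trithorax list, the shares of all genes were 40.0% in pSHF and 38.3% in HT. Under equal totals those shares were 54.7% and 26.3%. Chd3, an ATPase of the NuRD complex, was 3595 in HT and 13447 in pSHF on average (-1.90), and Mta1, another NuRD subunit, differed by -0.75. Mta3 (0.40) and Chd7 (0.49) were higher in HT. Of 12 genes of the Trithorax methyltransferases and their shared partners, 8 were higher in pSHF and 1, Dpy30 (0.22, and -0.03 with no call under equal totals), in HT, with a median of -0.28. Men1 (-0.47), Ash2l (-0.43) and Kmt2b (-0.16) were among those higher in pSHF, and with equal library totals 11 were higher in pSHF and 0 in HT.

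Levels of different genes were set side by side per kilobase of merged exons, as each paralog's share of its family's summed level. Smarcd3 held 40.6% ± 1.58 of the SMARCD level in HT (SD, n = 6), the largest share of the 3, and 13.8% ± 1.08 in pSHF, the smallest. Smarcd1 went from 35.5% ± 1.05 in HT to 54.5% ± 1.11 in pSHF. In the DPF family, Dpf2 held most of the level (75.2% in HT, 80.9% in pSHF), and the order of the other paralogs was reversed between the tissues. Dpf3 had 23.0% ± 1.28 in HT and 5.72% ± 1.39 in pSHF, and Dpf1 had 1.75% ± 0.767 and 13.4% ± 1.78. The summed DPF level per kilobase was 637 ± 19.6 in HT and 614 ± 21.2 in pSHF.

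Smarca4 made up 95.8% of the ATPase level in HT and 94.5% in pSHF, so Smarca2 was the minor ATPase in both. Among the 4 CBX members, Cbx2 went from 48.7% ± 2.49 in HT to 79.3% ± 0.851 in pSHF, while Cbx6 went from 40.5% ± 1.82 to 14.5% ± 0.892. Their order in HT turns on the merged exon lengths used (4257 bases for Cbx2 and 10609 for Cbx6). Cbx6 had the higher count in every HT library. Ezh1 held 17.8% ± 0.995 of the EZH level in HT and 9.47% ± 0.526 in pSHF. Per kilobase, H2afy2 held the larger part of the macroH2A level, with 65.2% ± 0.871 in HT and 76.4% ± 0.545 in pSHF. In HT this order turns on the merged exon lengths used (2175 bases for H2afy2 and 6809 for H2afy), since H2afy had the higher count in every HT library. The summed macroH2A level per kilobase was 929.6 ± 25.3 in HT and 3464 ± 118 in pSHF.

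**Figure D3:**
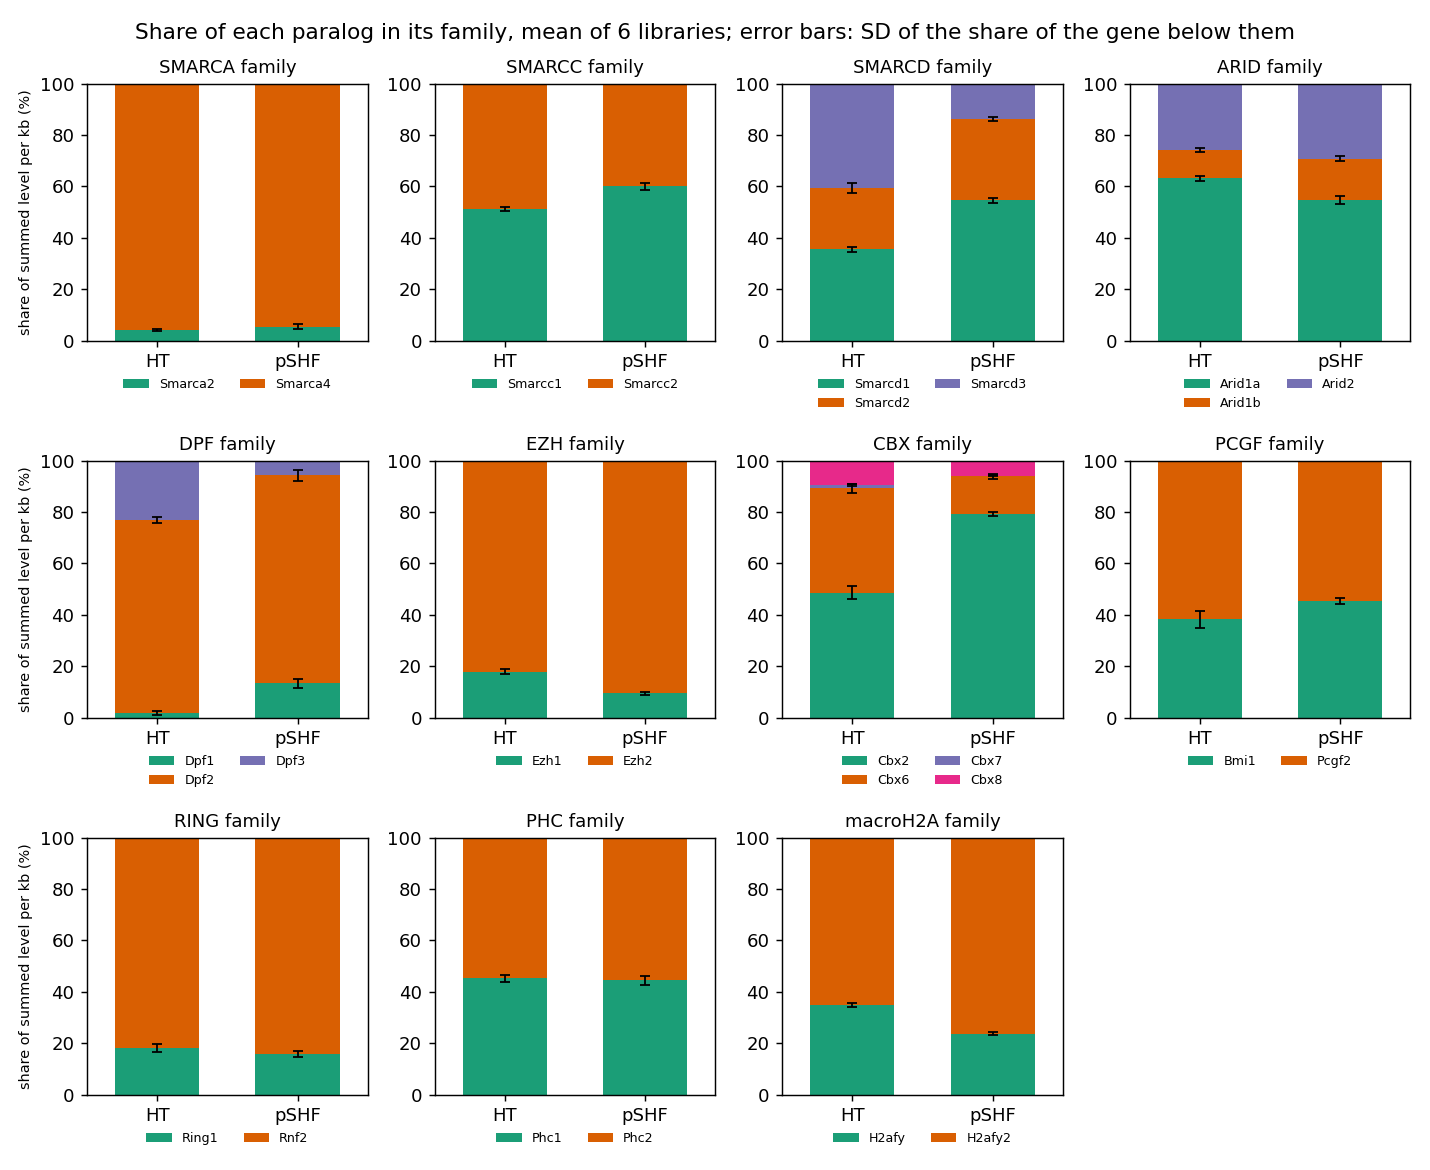
Share of each paralog in the summed level per kilobase of its family, in percent, as stacked bars for HT and pSHF with the SD over 6 libraries. Smarcd3 fills 40.6% of its bar in HT and 13.8% in pSHF, and Cbx2 fills 48.7% and 79.3%.

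A ratio of paralogs within a library does not depend on how libraries are scaled to each other. Of 16 such log2 ratios, 15 had an exact permutation p below 0.05 (two-sided, unadjusted; the smallest that 6 against 6 libraries allow is 0.00216). In 12 the tissues did not overlap, with HT above in 8 and pSHF above in 4. No such share was computed for other pairs of genes. Of all single genes tested, 78.3% passed in limma and 60.5% had no overlap, so these counts alone do not set paralogs apart. Smarcd3 over Smarcd1 ran from 0.41 to 0.60 in HT and from -1.74 to -1.42 in pSHF, a difference of 2.17 (4.51-fold, exact permutation p = 0.00216). Smarcd3 thus had the higher count of the pair in all HT libraries and the lower one in all pSHF libraries.

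Dpf3 over Dpf2 was higher in HT by 2.14, and Dpf1 over Dpf2 differed by -2.90, each with the smallest p that the exact permutation test allows (0.00216). Cbx6 over Cbx2 also changed sign between the tissues, with means of 1.05 in HT and -1.14 in pSHF (difference 2.19, exact permutation p = 0.00216). That sign is of counts not corrected for gene length. Per kilobase, Cbx2 held the larger share in HT too (48.7% against 40.5%). Ezh1 over Ezh2 differed by 1.05, and this ratio, unlike the call of Ezh1 itself, does not depend on the scaling of the libraries. H2afy2 over H2afy was -0.74 in HT and 0.05 in pSHF on average. Arid1b over Arid1a differed by -0.73, Arid2 over Arid1a by -0.39, Smarcc2 over Smarcc1 by 0.53 and Pcgf2 over Bmi1 by 0.43, all without overlap. Cbx7 over Cbx2 (2.44) and Cbx8 over Cbx2 (1.42) completed the ratios without overlap, and the CBX ratios share Cbx2.

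The tissues overlapped for 4 ratios. Smarcd2 over Smarcd1 differed by 0.21 (exact permutation p = 0.00866), Smarca2 over Smarca4 by -0.38 (exact permutation p = 0.013) and Ring1 over Rnf2 by 0.24 (exact permutation p = 0.0216). Without the 2 HT libraries with the highest erythroid share, MR28R and MR30, the exact permutation p was 0.0571 for Smarca2 over Smarca4 (difference -0.31) and 0.0857 for Ring1 over Rnf2 (0.18). Phc2 over Phc1 did not pass, with a difference of -0.05 (exact permutation p = 0.429).

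**Figure D4:**
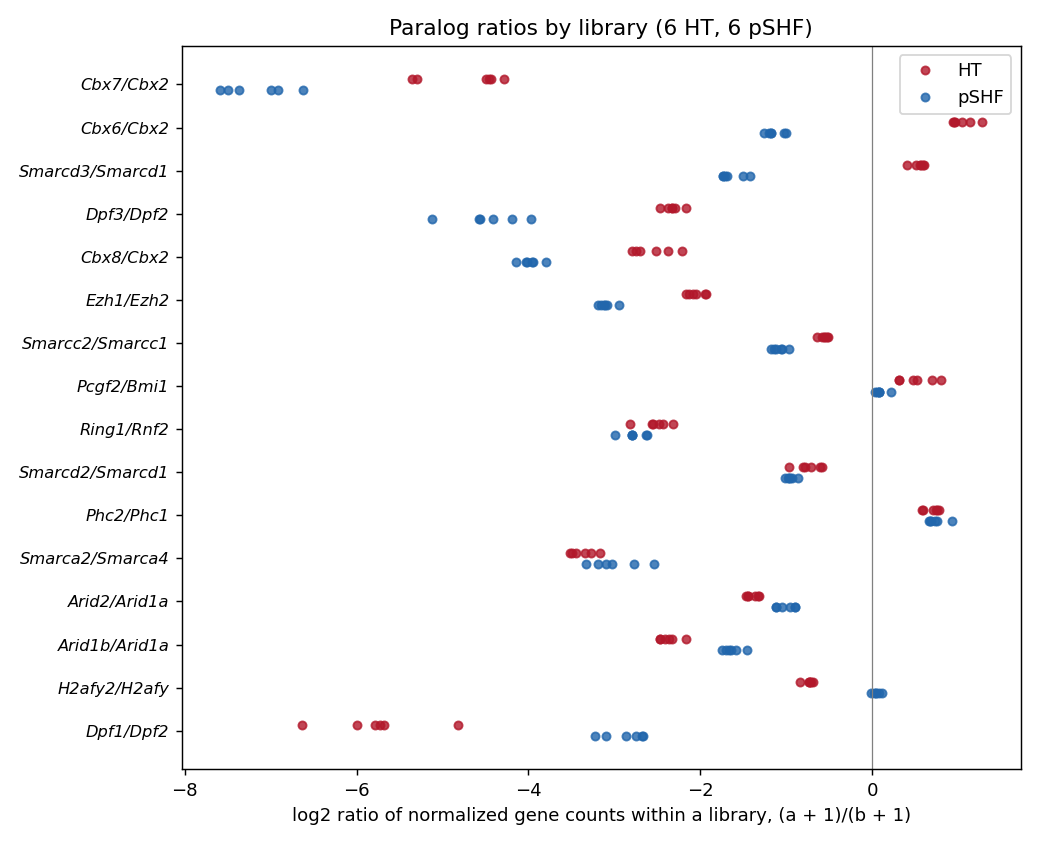
Log2 ratio of normalized gene counts, not corrected for gene length, for 16 pairs of paralogs, with 1 point per library in HT and pSHF. The tissues do not overlap for 12 pairs; Smarcd3/Smarcd1 and Cbx6/Cbx2 lie above 0 in HT and below 0 in pSHF, and Phc2/Phc1 overlaps.

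Spread within a tissue differed between members, and no such value was computed over all genes. The coefficient of variation over 6 libraries ran from 1.70% (Smarcc1) to 45.3% (Dpf1) in HT with a median of 5.75%, and from 1.77% (Ezh2) to 26.1% (Dpf3) in pSHF with a median of 4.67%. The most variable genes were thus the DPF paralogs in the tissue where each was low. Library MR13 was the lowest pSHF library for 12 of the 34 members, among them Smarca4, Arid1b and Pbrm1, and each other pSHF library was the lowest for 3 to 7. Over 12308 genes, its median deviation from the mean of the other pSHF libraries was 0.055 on the log2 scale for the shortest of 3 equal classes of genes by exon length and -0.068 for the longest. HT library MR30 had 0.029 and -0.056 in the same classes, measured against the other HT libraries, and MR28R had -0.054 and 0.001. The part of these deviations in the members' values was not tested.

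The authors' deposited table gave 32 of the 34 members an adjusted p below 0.05, 25 higher in pSHF and 7 higher in HT, beside 65.6% of 18214 genes (33.9% higher in pSHF and 31.7% higher in HT). Its calls were the same as those of limma for all 34. A second deposited table holds raw counts with only 233865 to 340434 counts per library, a median of 1.18% of the rebuilt depth. In it 20 members had enough counts for a test with edgeR, 12 were higher in pSHF (23.1% of 3370 genes were) and 1 higher in HT (25.2%), and 7 did not pass, where 48.3% of all genes passed in either direction. The 12 had the same direction in both tables, among them Cbx2 (-1.93, edgeR adjusted p = 5e-07), H2afy (-1.87, edgeR adjusted p = 2.5e-08) and Arid1b (-1.22). Both tables carry the same library codes, so the shared direction is not an independent measurement.

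Between the tables, 3 of the 20 members tested in both had log2 fold changes of opposite sign. For Suz12 the raw value was near 0 (-0.04, edgeR adjusted p = 0.914), beside 0.30 in the normalized table. Pcgf2 was higher in HT in the raw table (0.49, edgeR adjusted p = 0.0324) and higher in pSHF in the normalized one (-0.51). This raw call was lost with DESeq2 (0.48, DESeq2 adjusted p = 0.0583), without a filter on low counts (0.45, edgeR adjusted p = 0.0828), and when any of 6 libraries was left out, where the log2 fold change was 0.34 to 0.46. Smarcd3 had 445 raw counts over all HT libraries and 622 over all pSHF libraries and did not pass (-0.23, edgeR adjusted p = 0.087), although it passed as higher in pSHF without pSHF library MR13 (-0.29, edgeR adjusted p = 0.0362) or without HT library MR26 (-0.35, edgeR adjusted p = 0.0128). These raw counts were 5.17% of the reads rebuilt for Smarcd3, whereas the median over members was 0.493%. The exons of Smarcd3 share 2564 bases with genes on the opposite strand, mainly Chpf2, whose own normalized counts were 1144.5 ± 75.9 in HT and 769 ± 23.6 in pSHF. Whether the reads were counted by strand is not settled by the sources used here, so reads of Smarcd3 and Chpf2 in the shared bases may not be told apart.

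H2afy2 was higher in pSHF in both tables (120 raw counts in HT against 257 in pSHF; log2 fold change -0.85). Aifm2, which shares 233 exon bases with H2afy2 on the opposite strand, was looked at after its values were seen. It had 787 raw counts in HT and 4010 in pSHF, while its normalized counts were 381 ± 41.6 in HT and 280.2 ± 34.01 in pSHF (0.44, limma adjusted p = 0.00052). The raw table thus gave Aifm2 the direction of H2afy2, and the normalized table gave it the opposite one.

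**Figure D5:**
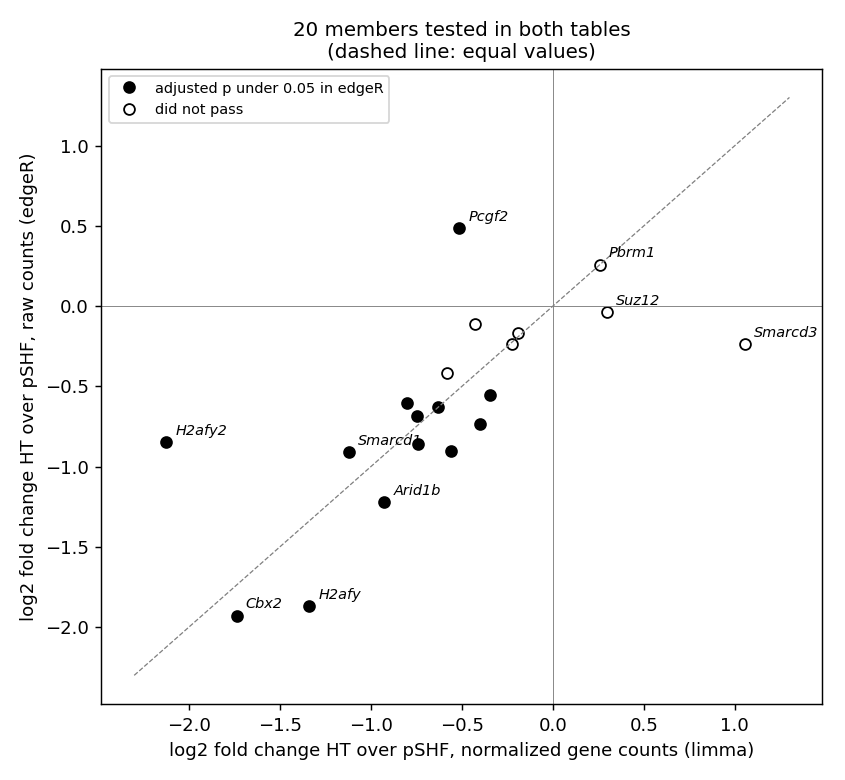
Log2 fold change of HT over pSHF from the normalized gene counts (limma) against that from the raw count table (edgeR) for the 20 members tested in both, with the dashed line marking equal values. Cbx2 and H2afy lie far below 0 on both axes, while Smarcd3 (1.06 and -0.23), Pcgf2 (-0.51 and 0.49) and Suz12 (0.30 and -0.04) have opposite signs.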

How the data were processed

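Libraries were grouped by tissue from their column names, 6 HT and 6 pSHF; the columns carry library codes and no replicate numbers. The submitters' processing notes name STAR, DESeq2 and the build mm10, and the sources used here give no version, annotation or counting tool. Per the labels' protocols the reads are stranded, although the kit named there does not mark strand.

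The authors deposited normalized gene counts (a signal per gene and library, scaled by the authors), with their log2 fold change, its standard error, the test score (the Wald statistic, not used here), p-value and adjusted p-value, per the file headers. Below 20.5 reads, 46.5 to 49.4% of these values were whole multiples of a step per library (tolerance 0.01 reads). Those steps gave the rebuilt depths, which are approximate because the remaining values carry a further factor. The authors also deposited raw counts per gene symbol.

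Here, limma (version 3.58.1, trend) was fitted to log2(normalized gene count + 1) for genes whose mean reached 5, with tissue as the only term. edgeR (version 4.0.16, quasi-likelihood, TMM, filterByExpr) was fitted to the raw counts. Both fits were run on simulated counts with balanced changes and a fixed spread. That setting is simpler than these data, so the run does not test the calls made here. Paralog ratios were compared by exact permutation over libraries. The normalized table leads because the raw table holds about 1% of the depth. The members, lists and tests were chosen with earlier results of these data known. Lowest, median and highest values are given for members past 2-fold and, in role groups without one, for the member with the largest change; Smarca2, Arid1b, Ezh2, Bmi1 and Kdm6b come from that second part. Of each other list, the 2 highest and 2 lowest called log2 fold changes with a mean of at least 50 are named. Alternatives were other scalings, filters, pseudocounts, DESeq2 (version 1.42.0) on the raw counts, and leaving out libraries. Gene coordinates and merged exon lengths are from GENCODE M21 on mm10, whose release need not be the authors'. The names of 27 genes that had turned into dates were restored by identifier. Scripts ran under R 4.3.3, with SciPy 1.17.1 for permutations and pandas 2.3.3 for tables.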

Additional observations from a re-analysis of the deposited data

Results flagged for a closer look

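Of the 68 groups examined (34 members in each tissue), 4 held a library far from the other 5, where chance alone gives about 1 in 20 groups. Smarcd3 in HT was 2066 in library MR28R and 2365 to 2512 in the others; without that library its log2 fold change was 1.095 instead of 1.06. Pbrm1 in HT was 7796 in the same library and 6346 to 6837 in the others. MR28R is also the HT library with the highest erythroid share, at 7.10% of the normalized total. Pbrm1 in pSHF was 5152 in library MR13 and 5700 to 6001 in the others. Dpf1 in HT was 111.8 in library MR26 and 31.5 to 59.3 in the others, and even this highest HT value was below the lowest pSHF value of 342.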

How the results depend on the processing

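No paired analysis was possible because the columns carry library codes and no replicate numbers. Over 20 alternatives, 29 of the 34 members kept their direction and call, and 671 of 680 member values did; the exceptions were Pbrm1, Ezh1, Suz12, Dpf2 and Ring1, each under another scaling. No member of the normalized analysis reversed its call. Leaving out any 1 library left 32 members called in limma, 7 higher in HT and 25 in pSHF. With equal library totals, 4 members were higher in HT (26.3% of all genes were), 1 of them more than 2-fold, and 9 members were more than 2-fold higher in pSHF. With totals computed without erythroid and mitochondrial genes, 1 member was more than 2-fold higher in HT and 8 in pSHF. These scalings shifted log2 fold changes in general, by -0.24 and -0.18. The shares of all genes past 2-fold were not computed under them, so these 2-fold counts do not set the members apart. In the raw table, DESeq2 called 0 members higher in HT, and leaving out 1 library gave 0 to 1 (0 without HT library MR26, MR27 or MR30, or without pSHF library MR14, MR17 or MR18), the 1 call being Pcgf2. The raw call of Smarce1, higher in pSHF, was lost with DESeq2 (-0.64), with no filter (-0.67), and without HT library MR25, MR26 or MR28R or pSHF library MR15 (-0.62 to -0.49), and Arid2 passed as higher in pSHF without pSHF library MR13, MR14 or MR18 (-0.50 to -0.48). TMM scaling gave 5 other remodelers higher in HT instead of 3. Without a filter on low raw counts, 2889 genes passed in all, 1497 higher in HT and 1392 in pSHF. The raw depth left 14 members untested.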
